A study of Mus musculus with 7 samples.

Results

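The genes described are 8 markers and regulators of CD4 helper and regulatory T cells: Cd4, Foxp3, Ikzf2, Ikzf4, Zbtb7b, Cd40lg, Lrrc32 and Gata3. They were chosen by gene symbol, and all 8 were found, once each, among the 55357 genes of the deposited TPM table. RNA-seq was made from CD8 T cells sorted as live CD45+ CD8+ cells. They came from tumours of MCA205, a transplantable mouse fibrosarcoma line, grown under the skin for 14 days. The groups were ENT1KO (Slc29a1-/- recipients, 4 libraries, replicates 11, 12, 14 and 15) and WT (C57Bl/6 recipients, 3 libraries, replicates 1, 2 and 3). Slc29a1 encodes ENT1, an equilibrative nucleoside transporter that carries adenosine. The sources used here do not give the mice's age or sex or which part of Slc29a1 was deleted, and the labels do not say that each library is a separate animal, so p-values measure the spread between these libraries, which may be technical.

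A CD8 T cell sort is meant to leave helper and regulatory T cells behind, so few transcripts of their defining genes would be carried along. Cd4 encodes the coreceptor for MHC class II, and Foxp3 the lineage factor of regulatory T cells. Zbtb7b (ThPOK) commits thymocytes to the CD4 lineage, where Runx3 does the same for the CD8 lineage. The other members are less exclusive: Ikzf2 (Helios), Ikzf4 (Eos), Gata3 and Cd40lg are also transcribed in other lymphocytes, and Lrrc32 (GARP), the surface anchor of latent TGF-beta, is also found on platelets and endothelial cells.

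The libraries held 18624318 to 19660792 reads assigned to genes, and each deposited normalized count stood for nearly 1 read (0.957 to 1.03 normalized counts per read). The sorted identity was present in every library: Cd8a stood at 1043, 1304, 984 and 858 TPM (a share of all transcripts, corrected for transcript length) in ENT1KO replicates 11, 12, 14 and 15, against 509, 309.8 and 684 TPM in WT replicates 1, 2 and 3. All 14 genes of a T cell list were higher in ENT1KO (median log2 difference 1.14), while genes of other cells were mostly lower. In the T cell list only Cd8a and Cd8b1 encode CD8, and the rest are shared with CD4 and regulatory T cells. All 12 macrophage and monocyte genes were lower, their sum running from 111 to 1298 TPM in ENT1KO and from 3401 to 5024 TPM in WT. So were all 11 tested fibroblast and tumour cell genes of 12, from 6.44 to 828 TPM in ENT1KO and from 3948 to 7451 TPM in WT. Without WT replicate 2 the numbers lower were 7 and 8. Of 11 tested dendritic cell genes the 4 of MHC class II presentation (H2-Aa, H2-Ab1, H2-Eb1 and Cd74) were lower, Ccr7 was higher (1.18) and 6 did not pass. The list's sum ran from 567 to 1364 TPM in ENT1KO and from 2111 to 3039 TPM in WT. In the list for NK, NKT and gamma-delta T cells, 2 of 6 tested genes were higher and 1 lower, and the B cell list had 2 of 4 each way. Slc29a1 itself ran from 13.2 to 17.6 TPM in ENT1KO and from 49.7 to 58.9 TPM in WT. Of the 13798 genes tested, 50.6% passed limma at an adjusted p of 0.05, with 27.5% higher in ENT1KO and 23.1% lower. On TPM that was 3800 genes higher and 3182 lower. On log2 normalized counts the split was 2894 and 3859, with the median of all genes at 0 in place of 0.15.

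RefSeq promoters, 250 bases before to 50 bases after a start site, were at hand for 3 of the 8 genes: Foxp3, Zbtb7b and Gata3, with 5 entries in all (build GRCm38.p6). The 2 Foxp3 entries and the Gata3 entry are printed because the 2 genes moved in opposite directions. Capitals mark any of 5 motifs searched on both strands. The RUNX core was searched as TGTGGT, which 16.8% of all 32851 promoters of this length hold. The GATA core was searched as AGATAA (11.2% of promoters) and the NFAT core as GGAAAA (23.4% of promoters). The AP-1 motif was searched as TGACTCA (5.20% of promoters) and the forkhead motif as GTAAACA (3.65% of promoters). The entries lie at chrX:7579426-7579725 and chrX:7580233-7580532 (both plus strand) and at chr2:9878551-9878850 (minus strand).
Foxp3, first entry: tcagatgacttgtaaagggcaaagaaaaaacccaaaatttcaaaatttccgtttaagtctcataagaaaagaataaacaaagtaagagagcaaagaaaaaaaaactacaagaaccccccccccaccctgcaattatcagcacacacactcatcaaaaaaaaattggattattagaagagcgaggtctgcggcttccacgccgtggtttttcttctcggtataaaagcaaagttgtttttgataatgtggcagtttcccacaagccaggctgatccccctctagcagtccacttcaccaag
Foxp3, second entry: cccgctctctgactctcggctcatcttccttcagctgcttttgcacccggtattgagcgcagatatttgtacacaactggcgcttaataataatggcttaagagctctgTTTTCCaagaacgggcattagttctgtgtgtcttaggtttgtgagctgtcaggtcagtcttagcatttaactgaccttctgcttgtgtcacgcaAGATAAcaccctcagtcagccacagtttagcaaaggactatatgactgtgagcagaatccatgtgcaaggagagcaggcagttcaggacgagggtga
Gata3: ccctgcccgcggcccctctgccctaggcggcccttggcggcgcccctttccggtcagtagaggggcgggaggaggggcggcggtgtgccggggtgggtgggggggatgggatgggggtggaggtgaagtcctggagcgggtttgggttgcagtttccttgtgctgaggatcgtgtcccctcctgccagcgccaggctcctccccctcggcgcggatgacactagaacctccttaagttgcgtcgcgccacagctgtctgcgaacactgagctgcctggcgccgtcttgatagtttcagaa
The second Foxp3 entry holds an NFAT core on the other strand, beginning 141 bases before the start, and a GATA core 47 bases before it, while the first Foxp3 entry and the Gata3 entry hold none of the 5. These matches do not overlap each other. The Zbtb7b entries hold an NFAT core in the first and a RUNX core in the second.

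All 8 genes passed the filter of 1 TPM in at least 3 libraries. Cd4 and Foxp3 were lower in ENT1KO and Gata3 and Cd40lg were higher, while Ikzf2, Ikzf4, Zbtb7b and Lrrc32 did not pass the test. That is 2 lower of 8 against 23.1% of all genes, and 2 higher of 8 against 27.5%, so the share of calls among these genes was close to that of the whole transcriptome. Their median log2 difference was 0.11, against 0.15 for all genes tested. TPM was wholly apart between the genotypes for 3 of the 8 genes (55.2% of all genes), 2 of them higher (30.3%) and 1 lower (24.9%). On normalized counts 3 of the 8 were called (48.9%), 1 higher (21%) and 2 lower (28%). Normalized counts were wholly apart for 3 of the 8 (53.1%), 1 higher (23.4%) and 2 lower (29.7%). The authors' deposited table calls 3 of the 8 (42.3% of its 18878 genes), Gata3 higher (16.5%) and Cd4 and Foxp3 lower (25.8%). Each log2 difference below is the ENT1KO mean minus the WT mean of log2(TPM + 1), a scale that understates the change of low genes, unless another scale is named. Adjusted p-values are from limma with Benjamini-Hochberg adjustment over all genes tested.

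Cd4 (ENSMUSG00000023274.15, chromosome 6, 124841655 to 124865184, GRCm39) was a trace in every library. Its TPM was 0.87, 1.95, 1.05 and 0.80 in ENT1KO replicates 11, 12, 14 and 15, against 3.22, 2.71 and 1.79 in WT replicates 1, 2 and 3. ENT1KO replicate 12 lay just above WT replicate 3, so the groups overlapped on this scale. Cd4 averaged 1.17 ± 0.532 TPM (SD, n = 4) in ENT1KO and 2.57 ± 0.725 TPM (SD, n = 3) in WT, which on the log2 scale is -0.73 (standard error 0.24, limma adjusted p = 0.0352). On deposited normalized counts the groups were apart, at 37.6, 80.9, 46.9 and 16.7 in ENT1KO and 148, 109.8 and 92.6 in WT. The log2 difference there was -1.51 (limma adjusted p = 0.0373), and the authors' deposited table gives a log2 fold change of -1.36 with an adjusted p of 0.0140. Leaving out ENT1KO replicate 11, 14 or 15, or WT replicate 1 or 2, ended the call on TPM (limma adjusted p between 0.0623 and 0.118). So did quantile normalization (-0.28, limma adjusted p = 0.343) and dropping the minimum level (limma adjusted p = 0.0604).

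Foxp3 (ENSMUSG00000039521.14, chromosome X, 7439883 to 7461484) was the least abundant of the 8, and its highest ENT1KO value lay below its lowest WT value. TPM were 0.77, 0.31, 0.65 and 0.60 in ENT1KO replicates 11, 12, 14 and 15, against 1.63, 1.51 and 1.53 in WT replicates 1, 2 and 3. The WT libraries were nearly level, and ENT1KO replicate 12, the highest of its group for Cd4, was the lowest for Foxp3. Foxp3 averaged 0.583 ± 0.195 TPM in ENT1KO (SD, n = 4) and 1.56 ± 0.0643 TPM in WT (SD, n = 3), 0.374 times as high in ENT1KO. Its log2 difference was -0.70 (standard error 0.17, limma adjusted p = 0.0113). The reads behind these values were few: 40.7, 14.6, 33.5 and 27.5 normalized counts in ENT1KO, against 84.5, 91.3 and 70.7 in WT. On that scale the log2 difference was -1.55 (limma adjusted p = 0.0118), and the authors' deposited table gives -1.499 with an adjusted p of 0.000361. The call held without each single library (limma adjusted p from 0.0186 to 0.0387) and was lost after quantile normalization, at -0.23 (limma adjusted p = 0.381). Ccdc22, which the deposited coordinates place across the Foxp3 interval, averaged 9.21 TPM in ENT1KO and 13.5 TPM in WT, and reads shared between overlapping genes could not be separated here. In bulk libraries, fewer cells of a type and less RNA per cell cannot be told apart.

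**Figure D1:**
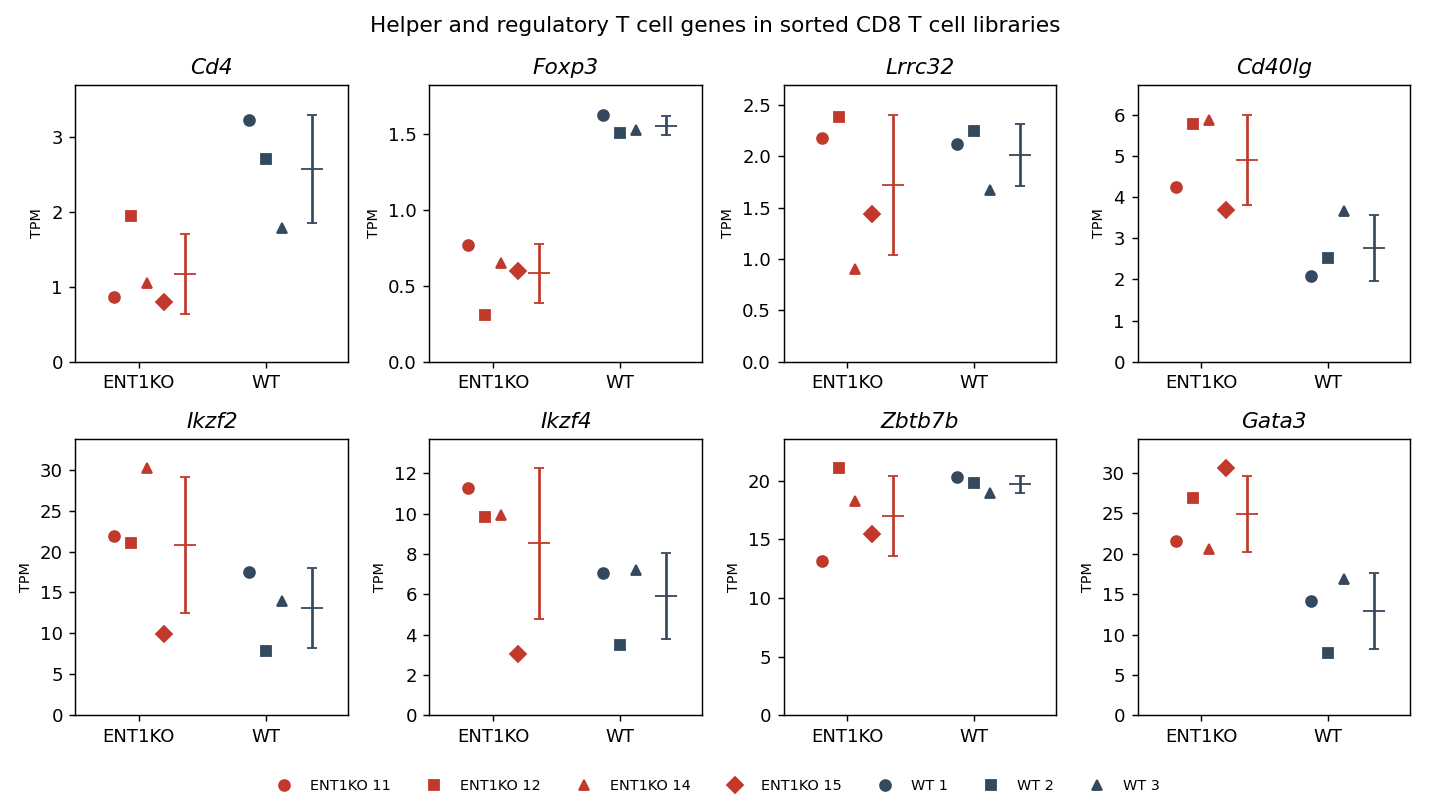
TPM of each of the 8 genes in each library (points, by replicate), with the mean and SD of each group at its right (n = 4 ENT1KO, n = 3 WT). Foxp3 lies between 0.31 and 0.77 TPM in ENT1KO and between 1.51 and 1.63 TPM in WT, while Gata3 lies at 20.6 TPM or more in ENT1KO and at 16.9 TPM or less in WT.

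Against the T cell transcripts of the same library, the Cd4 and Foxp3 traces were further apart. Per 1000 TPM of Cd8a there were 0.834, 1.495, 1.07 and 0.933 TPM of Cd4 in ENT1KO replicates 11, 12, 14 and 15, against 6.33, 8.75 and 2.62 in WT replicates 1, 2 and 3. Every WT value exceeded every ENT1KO value, and WT replicate 2, with the least Cd8a, was the highest. The log2 ratio differed by -2.32 with a standard error of 0.55. Against the sum of Cd3d, Cd3e and Cd3g, subunits of the T cell receptor complex, the difference was -2.32 for Cd4 and -2.62 for Foxp3. These log2 ratios use TPM without the added 1, so they are not on the scale of the -0.73 and -0.70 above. On log2(TPM + 1) less the mean of the CD3 genes, Cd4 was at -1.85 and Foxp3 at -1.82. Foxp3 averaged 0.264 ± 0.106 TPM per 1000 TPM of these CD3 genes in ENT1KO (SD, n = 4) and 1.57 ± 0.643 in WT (SD, n = 3). These 3 ratios each gave an exact two-sided permutation p of 0.0286 over the 35 splits, the smallest that 4 against 3 libraries can give (0.0381 after Benjamini-Hochberg adjustment over the 4 ratios). All 4 ratios were chosen with earlier results of these data known, so these p-values describe the separation and are not independent support. Per TPM of the CD3 genes, 58.5% of all genes had every ENT1KO value below every WT value and 0.58% had every one above. The macrophage and fibroblast lists and the MHC class II genes moved with the same groups, as given above, and their part in the Cd4 and Foxp3 differences was not tested.

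The Foxp3 to Cd4 ratio did not separate the genotypes. It was 0.885, 0.159, 0.619 and 0.75 in ENT1KO replicates 11, 12, 14 and 15, against 0.506, 0.557 and 0.855 in WT replicates 1, 2 and 3. The ratio averaged 0.603 ± 0.315 in ENT1KO (SD, n = 4) and 0.639 ± 0.188 in WT (SD, n = 3), and the log2 difference was -0.30 (standard error 0.61, exact two-sided permutation p = 0.886, adjusted 0.886). Without ENT1KO replicate 12 it was 0.26. A p of this size does not show that the ratio was the same in the 2 genotypes.

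**Figure D2:**
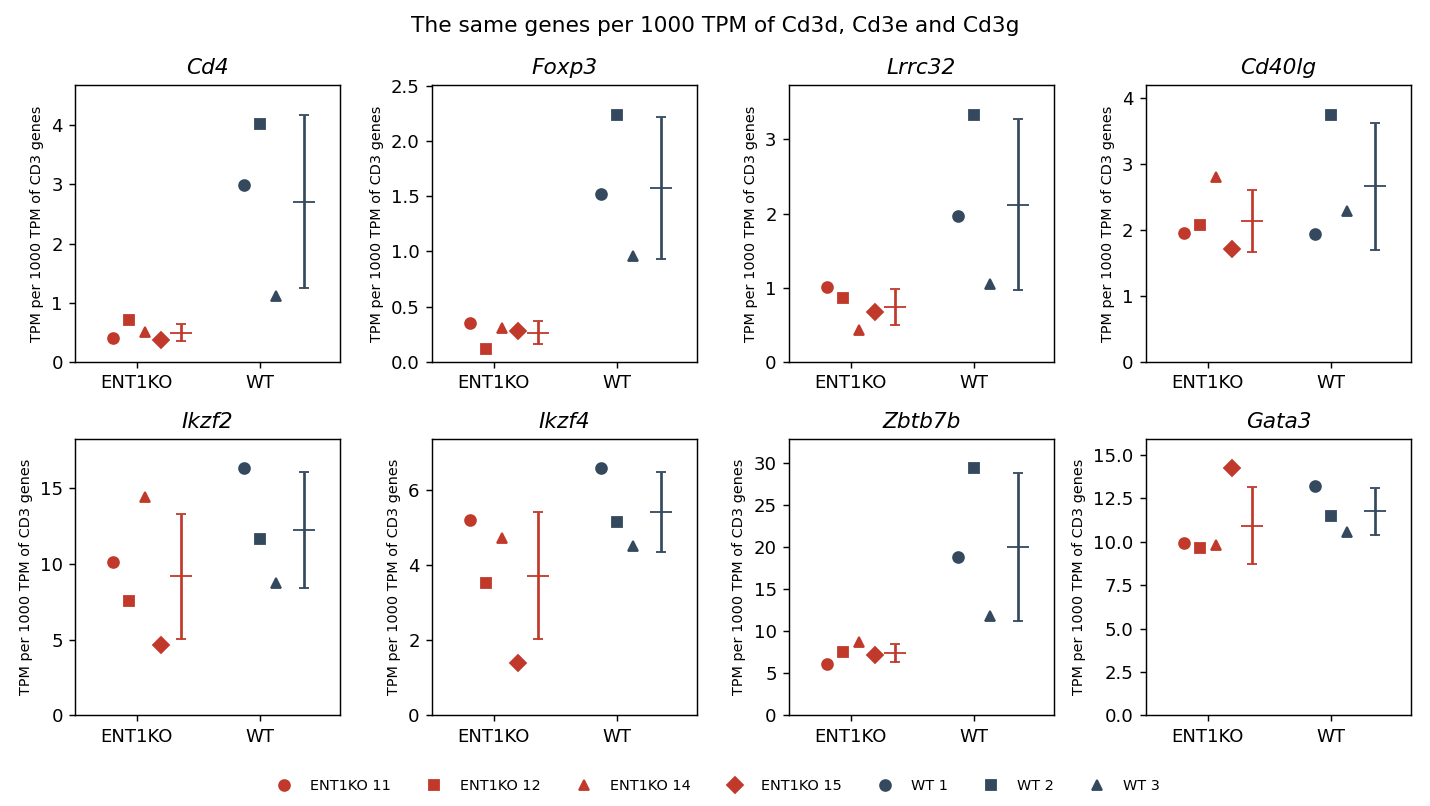
The same 8 genes as TPM per 1000 TPM of the summed Cd3d, Cd3e and Cd3g of the same library (points), with the mean and SD of each group at its right (n = 4 ENT1KO, n = 3 WT). All ENT1KO values lie below all WT values for Cd4, Foxp3, Lrrc32 and Zbtb7b, and the groups overlap for Gata3, Cd40lg, Ikzf2 and Ikzf4.

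Cd4 also differed in how many reads stood behind its TPM. The normalized count per TPM was 43.2, 41.5, 44.7 and 20.9 in ENT1KO replicates 11, 12, 14 and 15, against 46.0, 40.5 and 51.7 in WT replicates 1, 2 and 3. ENT1KO replicate 15 thus had a Cd4 TPM close to that of replicate 11 on fewer normalized counts, 16.7 against 37.6. The table sums 5 Cd4 transcripts, which run from 273 to 3108 bases in GENCODE M21. Which of them the reads of replicate 15 fell on was not tested. Lrrc32 had its lowest value in the same library, 42.3 normalized counts per TPM against 56.4 to 60.6 in the other ENT1KO libraries.

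**Figure D3:**
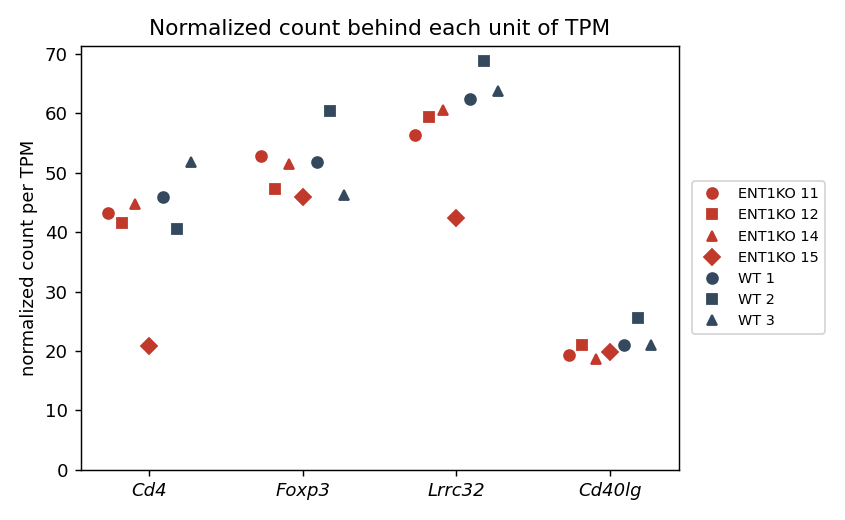
Deposited normalized count divided by deposited TPM for the 4 least abundant of the 8 genes, by library (ENT1KO left of WT within each gene). Cd4 in ENT1KO replicate 15 stands at 20.9, and the other 6 libraries stand between 40.5 and 51.7.

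Gata3 (ENSMUSG00000015619.11, chromosome 2, 9861889 to 9894845), the type 2 helper factor that CD8 T cells also use, was higher in ENT1KO. Its level was 21.5, 26.9, 20.6 and 30.6 TPM in ENT1KO replicates 11, 12, 14 and 15, against 14.2, 7.76 and 16.9 TPM in WT replicates 1, 2 and 3. The groups did not overlap, and WT replicate 2 was the lowest. Gata3 averaged 24.9 ± 4.69 TPM in ENT1KO (SD, n = 4) and 12.9 ± 4.68 TPM in WT (SD, n = 3). Its log2 difference was 0.94 (standard error 0.25, limma adjusted p = 0.0166), and the authors' deposited table gives 0.78 with an adjusted p of 0.00970. The call held without each single library (limma adjusted p from 0.00972 to 0.0428). Relative to the CD3 genes the groups overlapped. TPM of Gata3 per 1000 TPM was 10.9 ± 2.22 in ENT1KO and 11.8 ± 1.36 in WT (log2 difference -0.12). Limma differences relative to the CD3 genes are on another scale, log2(TPM + 1) less the mean of Cd3d, Cd3e and Cd3g. There Gata3 was at -0.18 (limma adjusted p = 0.645).

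Cd40lg (ENSMUSG00000031132.2, chromosome X, 56257503 to 56269402), the ligand through which helper T cells activate CD40-bearing cells, was at 4.25, 5.78, 5.88 and 3.68 TPM in ENT1KO replicates 11, 12, 14 and 15. In WT replicates 1, 2 and 3 it was at 2.09, 2.53 and 3.66 TPM. The lowest ENT1KO and the highest WT library were 3.68 and 3.66 TPM, so the groups were barely apart. Cd40lg averaged 4.90 ± 1.10 TPM in ENT1KO (SD, n = 4) and 2.76 ± 0.81 TPM in WT (SD, n = 3), which on the log2 scale is 0.65 (standard error 0.22, limma adjusted p = 0.0409). Leaving out ENT1KO replicate 11, 12 or 14, or WT replicate 1 or 2, ended the call (limma adjusted p between 0.0635 and 0.126). It was also missed on normalized counts (0.64, limma adjusted p = 0.0957). After quantile normalization the difference was 1.05 (limma adjusted p = 0.00569). The authors' deposited table gives 0.64 with an adjusted p of 0.0867. Relative to the CD3 genes the limma difference was -0.47 (limma adjusted p = 0.347).

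Of 10 genes of the CD40 ligand pathway, Cd40lg among them, 8 were higher and 1 was lower in ENT1KO, with a median log2 difference of 0.56. Of all genes tested, 27.5% were higher and 23.1% lower. Cd40, the receptor that antigen-presenting cells carry, was at 2.17 ± 1.05 TPM in ENT1KO (SD, n = 4) and 9.81 ± 3.33 TPM in WT (SD, n = 3), a log2 difference of -1.77 (limma adjusted p = 0.00317). The part of the macrophage and MHC class II genes in the Cd40 difference was not tested. Traf1 and Traf5, adaptors of TNF receptor family signalling, rose by 1.03 and 0.73 on the log2 scale (limma adjusted p = 0.00370 and 0.00352). The number of pathway genes higher was 4 without WT replicate 2, 5 without ENT1KO replicate 11 or 15 or WT replicate 1, and 5 on normalized counts (21% of all genes). Relative to the CD3 genes 0 were higher and 3 lower, where 0.188% of all genes were higher and 62.3% lower.

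Ikzf2 and Ikzf4 varied within each genotype by about as much as between them. Ikzf2 (ENSMUSG00000025997.14, chromosome 1, 69570373 to 69726404) was measured at 21.95, 21.02, 30.2 and 9.97 TPM in ENT1KO replicates 11, 12, 14 and 15, against 17.5, 7.83 and 13.95 TPM in WT replicates 1, 2 and 3. Ikzf4 (ENSMUSG00000002578.19, chromosome 10, 128466712 to 128505227) stood at 11.3, 9.85, 9.94 and 3.02 TPM in ENT1KO and at 7.08, 3.47 and 7.21 TPM in WT. Ikzf2 averaged 20.8 ± 8.30 TPM in ENT1KO (SD, n = 4) and 13.1 ± 4.89 TPM in WT (SD, n = 3), and Ikzf4 8.53 ± 3.73 and 5.92 ± 2.12 TPM. For each gene ENT1KO replicate 15 and WT replicate 2 were the lowest of their group. Log2 differences were 0.60 (standard error 0.38) for Ikzf2 and 0.39 (standard error 0.42) for Ikzf4 (limma adjusted p = 0.213 and 0.453). Without ENT1KO replicate 15 they were 0.90 and 0.77, each a call (limma adjusted p = 0.0377 and 0.0456), and relative to the CD3 genes they were -0.52 and -0.73 (limma adjusted p = 0.179 and 0.105). Among the 28 pairs of the 8 genes, these had the most alike profiles: the root mean square distance between their centred log2 levels over the 7 libraries was 0.241, with 7 genes nearer to Ikzf2 and 8 nearer to Ikzf4 than the other of the pair.

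The other 3 Ikaros family genes, zinc finger factors of lymphocyte development, were higher in ENT1KO. Ikzf1 was at 248 ± 26.6 TPM in ENT1KO (SD, n = 4) and 110.05 ± 37.1 TPM in WT (SD, n = 3), Ikzf3 at 166 ± 24.5 and 85.9 ± 29.5 TPM, and Ikzf5 at 27.2 ± 2.99 and 17.5 ± 2.195 TPM. Their log2 differences were 1.22, 0.99 and 0.61 (limma adjusted p = 0.00389, 0.0102 and 0.00663). Relative to the CD3 genes none of the 3 passed, at 0.10, -0.13 and -0.51, where 62.5% of all genes were called.

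**Figure D4:**
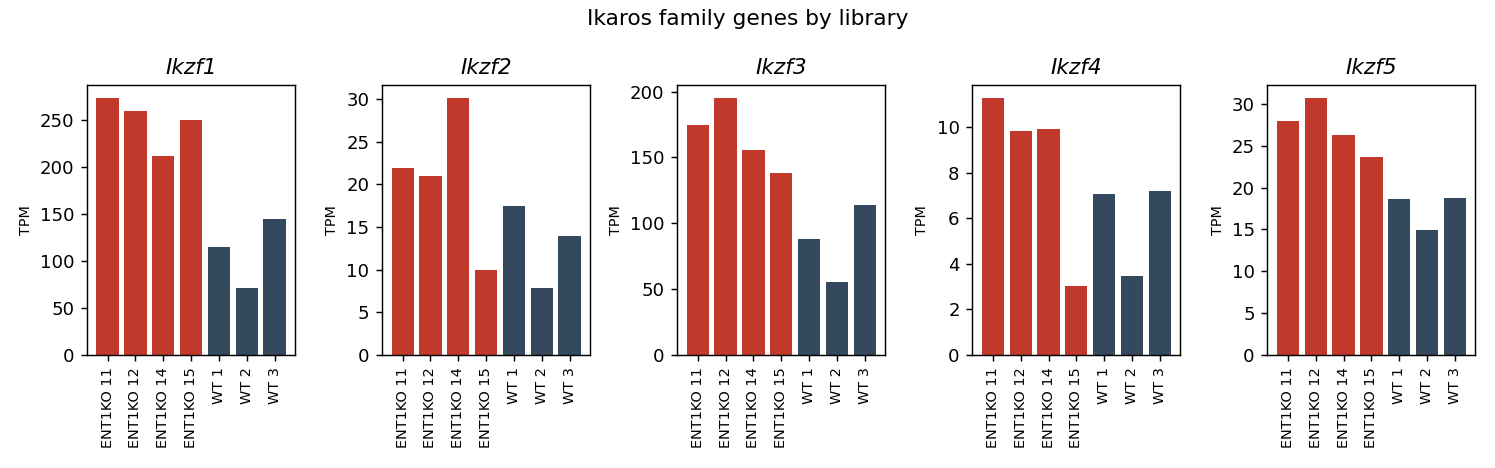
TPM of the 5 Ikaros family genes in each library (1 bar per library, ENT1KO in red at the left, WT in dark blue at the right, axes from 0). For Ikzf1, Ikzf3 and Ikzf5 every ENT1KO bar is taller than every WT bar, while Ikzf2 and Ikzf4 drop in ENT1KO replicate 15 to 9.97 and 3.02 TPM.

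Zbtb7b (ENSMUSG00000028042.16, chromosome 3, 89284951 to 89302083) was transcribed at a level far above that of Cd4. Levels were 13.2, 21.1, 18.3 and 15.5 TPM in ENT1KO replicates 11, 12, 14 and 15, against 20.3, 19.8 and 18.9 TPM in WT replicates 1, 2 and 3. The ENT1KO libraries spread around the narrow WT range, at 17.0 ± 3.43 TPM (SD, n = 4) and 19.7 ± 0.703 TPM (SD, n = 3). Its log2 difference, -0.22 (standard error 0.16), did not pass (limma adjusted p = 0.270), nor did the value in the authors' deposited table (-0.40, adjusted p = 0.102). Relative to the CD3 genes the groups did not overlap, with 7.38 ± 1.09 TPM per 1000 TPM in ENT1KO and 20.03 ± 8.85 in WT, where 59.1% of all genes did not overlap.

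Among 12 genes of the choice between the CD4 and CD8 lineages, Zbtb7b and Gata3 included, 7 were higher, 1 was lower and 4 did not pass, with a median of 0.85. The shares of all genes were 27.5% higher and 23.1% lower. Runx3 was at 83.6 ± 7.61 TPM in ENT1KO (SD, n = 4) and 49.7 ± 12.2 TPM in WT (SD, n = 3), a difference of 0.77 (limma adjusted p = 0.00821), and Bcl11b, a T cell commitment factor, rose by 1.63 on the log2 scale (limma adjusted p = 0.00611). Runx1 was the gene that fell, at 10.6 ± 0.822 against 15.7 ± 0.392 TPM (log2 difference -0.53, limma adjusted p = 0.00606). Relative to the CD3 genes no gene of this list was higher and 3 were lower, where 0.188% of all genes were higher and 62.3% lower.

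Lrrc32 (ENSMUSG00000090958.3, chromosome 7, 98138490 to 98151388) did not separate the groups. It was at 2.18, 2.38, 0.90 and 1.44 TPM in ENT1KO replicates 11, 12, 14 and 15, against 2.12, 2.25 and 1.67 TPM in WT replicates 1, 2 and 3. The ENT1KO libraries 11 and 12 lay within or above the WT range and libraries 14 and 15 below it. Lrrc32 averaged 1.73 ± 0.683 TPM in ENT1KO (SD, n = 4) and 2.01 ± 0.304 TPM in WT (SD, n = 3). Its log2 difference was -0.18 (standard error 0.24, limma adjusted p = 0.554), and the authors' deposited table gives -0.47 with an adjusted p of 0.355. After quantile normalization the sign turned, to 0.25 (limma adjusted p = 0.498). Of the platelet genes, Gp1bb and Ppbp were listed at 0 in every ENT1KO library and at 0.30 to 0.62 and 0.32 to 1.04 TPM in WT, and Gp9 was listed at 0 in all 7 libraries. The summed platelet and erythroid list ran from 56.1 to 238 TPM in ENT1KO and from 717 to 1964 TPM in WT (4 of 5 tested genes lower, against 23.1% of all genes). Most of that sum was haemoglobin: Hbb-bs and Hba-a2 averaged 65.2 and 67.9 TPM in ENT1KO, against 524 and 518 TPM in WT. The endothelial list ran from 31.9 to 45.3 TPM in ENT1KO and from 50.6 to 69.1 TPM in WT (6 of 7 lower, 1 higher). The gene higher was Pecam1 (log2 difference 0.63, limma adjusted p = 0.0232), a call lost on normalized counts. Pecam1 averaged 30.3 TPM of a mean sum of 37.3 TPM in ENT1KO, and 18.9 TPM of 60.6 TPM in WT. The part of platelets and endothelial cells in the Lrrc32 level was not tested.

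Genes that hold and release latent TGF-beta were lower where they passed. Of 10 tested genes of that list 5 were lower and none was higher in limma, where 23.1% of all genes were lower and 27.5% higher. The median log2 difference of the list was -1.10. Tgfb1, the most abundant gene of the list, did not pass (log2 difference 0.25, limma adjusted p = 0.385). It was at 189 ± 39.0 TPM in ENT1KO (SD, n = 4) and 161 ± 50.2 TPM in WT (SD, n = 3). Tgfb3 was at 2.86 ± 3.39 TPM in ENT1KO (SD, n = 4) and 45.7 ± 11.4 TPM in WT (SD, n = 3), Ltbp4, a latent TGF-beta binding protein, at 2.63 ± 2.79 and 25.9 ± 8.38 TPM, and Tgfb2 at 0.188 ± 0.187 and 3.08 ± 1.09 TPM (limma adjusted p = 0.00190, 0.00290 and 0.00151). The summed fibroblast and tumour cell list was lowest in ENT1KO replicate 15 and highest among ENT1KO in replicate 14, the libraries with the lowest (0.38 TPM) and the highest (7.84 TPM) ENT1KO level of Tgfb3, and its part in these falls was not tested.

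Surface and secreted genes of regulatory T cells were mixed. Of 17 tested genes 6 were higher and 2 lower in ENT1KO, with a median of 0.62, where 27.5% of all genes were higher and 23.1% lower. Ctla4 and Icos, receptors that activated CD8 T cells share with regulatory T cells, were at 471 ± 109 and 277 ± 68.9 TPM in ENT1KO (SD, n = 4), against 180.4 ± 55.96 and 105 ± 46.5 TPM in WT (SD, n = 3), log2 differences of 1.41 and 1.45 (limma adjusted p = 0.00380 and 0.00617). Il10, a cytokine that macrophages make as well, fell to 0.953 ± 0.687 TPM in ENT1KO, against 3.78 ± 0.955 TPM in WT (log2 difference -1.33, limma adjusted p = 0.00678), and the part of the macrophage genes in that fall was not tested. The number higher was 2 without ENT1KO replicate 11 or 12 or WT replicate 1 or 2, and 2 on normalized counts (21% of all genes). It was 3 without ENT1KO replicate 14 and 9 without ENT1KO replicate 15. Relative to the CD3 genes 0 were higher and 7 lower, where 0.188% of all genes were higher and 62.3% lower.

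Among helper subset genes the transcription factors were mostly higher, and most of the cytokines that define type 2 and type 17 helper cells fell under the filter. Of 11 tested transcription factors 7 were higher and 1 was lower, with a median of 0.80, where 27.5% of all genes were higher and 23.1% lower. Stat4 and Irf4 were at 141 ± 4.72 and 85.2 ± 23.8 TPM in ENT1KO (SD, n = 4), against 61.97 ± 24.5 and 36.8 ± 12.3 TPM in WT (SD, n = 3), and Maf, which macrophages also express, fell to 3.72 ± 1.45 TPM, against 17.9 ± 3.46 TPM in WT (limma adjusted p = 0.00509, 0.0101 and 0.00130). The number of factors higher was 4 without ENT1KO replicate 11 or WT replicate 1 or 2. Relative to the CD3 genes 0 factors were higher and 3 lower, where 0.188% of all genes were higher and 62.3% lower. Of 19 helper cytokine and receptor genes 8 were tested, 4 of them higher and 1 lower, against the same shares of all genes (27.5% and 23.1%). Ifng and Cxcr3 rose by 1.04 and 1.47 on the log2 scale (limma adjusted p = 0.0176 and 0.0113), but relative to the CD3 genes Ifng turned to -0.08 and Cxcr3 (0.35) lost its call. Il1rl1, the IL-33 receptor of type 2 lymphocytes and mast cells, was at 7.96 ± 6.80 TPM in ENT1KO and 47.9 ± 17.5 TPM in WT (log2 difference -2.75, limma adjusted p = 0.00987), a call lost without WT replicate 2 (limma adjusted p = 0.0533). The summed list of type 2 innate lymphoid and mast cell genes, which holds Il1rl1, ran from 9.95 to 41.8 TPM in ENT1KO and from 61.5 to 124 TPM in WT. In it 6 of 7 tested genes were lower (23.1% of all genes), and its part in the Il1rl1 fall was not tested. The number of helper cytokine and receptor genes higher was 2 without ENT1KO replicate 11 or 14 or WT replicate 2, and 2 on normalized counts (21% of all genes). Relative to the CD3 genes 0 of them were higher and 3 lower, where 0.188% of all genes were higher and 62.3% lower. Il4, Il13, Il17a, Il17f and Il21 were among the 11 under the filter, Il9 was listed at 0 in all 7 libraries, Il5 in all ENT1KO libraries, and Il22 in all WT libraries and 2 of the 4 ENT1KO libraries.

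By mean TPM the ENT1KO libraries ordered the 8 genes as Gata3, Ikzf2, Zbtb7b, Ikzf4, Cd40lg, Lrrc32, Cd4 and Foxp3. In WT the order was Zbtb7b, Ikzf2, Gata3, Ikzf4, Cd40lg, Cd4, Lrrc32 and Foxp3. In ENT1KO the values of Gata3, Ikzf2 and Zbtb7b overlapped, as did those of Ikzf4 and Cd40lg and those of Lrrc32 and Cd4. Ikzf2 and Ikzf4 overlapped too, with Ikzf2 at 9.97 TPM in replicate 15 and Ikzf4 at 11.3 TPM in replicate 11. In WT Zbtb7b lay above the overlapping pair of Ikzf2 and Gata3, and each neighbour from Ikzf4 down to Lrrc32 overlapped the next. Foxp3 lay below all others in each genotype. Over all libraries 55.7% of tested genes had a lower mean level than Gata3, 10.6% a lower one than Cd4 and 2.71% a lower one than Foxp3.

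**Figure D5:**
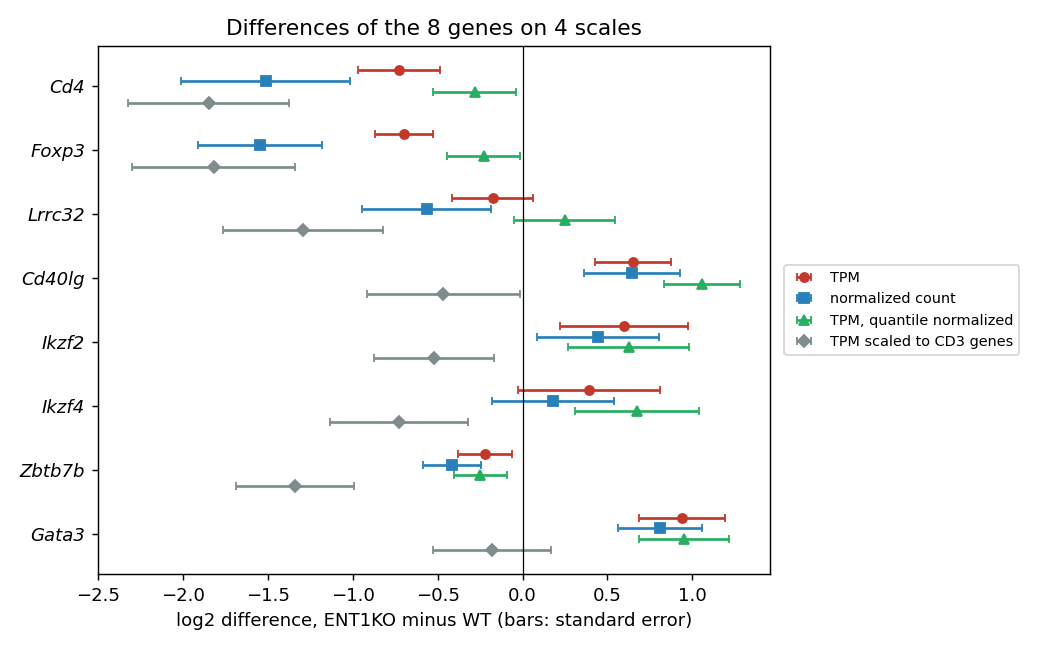
Difference between the ENT1KO and WT means in log2 units for each of the 8 genes with its limma standard error on 4 scales: log2(TPM + 1), log2(normalized count + 1), quantile-normalized log2(TPM + 1), and log2(TPM + 1) after subtraction of the mean of Cd3d, Cd3e and Cd3g. Gata3 lies at 0.94, 0.81, 0.95 and -0.18, and Foxp3 at -0.70, -1.55, -0.23 and -1.82.

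Set against the CD3 genes, none of the 8 genes was higher in ENT1KO in limma and 4 were lower (62.5% of all genes were called): Cd4 (-1.85), Foxp3 (-1.82), Zbtb7b (-1.34) and Lrrc32 (-1.30). The same CD3 level is subtracted from every gene of a library, so the differences of all genes drop by the same amount. That shift turned the signs of Gata3, Cd40lg, Ikzf2 and Ikzf4. On that scale 62.3% of all genes were lower and 0.188% higher, with the median of all genes at -0.97, against 0.15 on TPM. Cd4, Foxp3, Zbtb7b and Lrrc32 lay below that median and Gata3, Cd40lg, Ikzf2 and Ikzf4 lay above it. The limma p-values on that scale are too small, because all genes share the spread of the 3 CD3 genes.

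The genes with the profiles most like that of Cd4 over the 7 libraries were Gas2, Sumf1 and Card10, at root mean square distances of 0.119, 0.133 and 0.138 between centred log2(TPM + 1) levels, where the median over 12061 candidate genes was 0.588. Gas2 was at 5.67 ± 1.35 TPM in ENT1KO (SD, n = 4) and 11.6 ± 3.28 TPM in WT (SD, n = 3). For Foxp3, Mreg and Mapre3 were among the 3 nearest, at 0.0779 and 0.0927, where the median was 0.525. Mreg was at 0.50 ± 0.214 TPM in ENT1KO (SD, n = 4) and 1.40 ± 0.09 TPM in WT (SD, n = 3). Foxp3 and Cd4 were not near neighbours of each other, at a distance of 0.362, with 1578 genes nearer to Cd4 and 2944 nearer to Foxp3.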

How the data were processed

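Poly(A)-selected RNA-seq libraries of sorted tumour CD8 T cells, at least 30000 cells per condition and 75 ng of RNA per the labels' protocols, were compared as ENT1KO (4) against WT (3), groups taken from the sample titles. The authors deposited TPM per gene, with 2 decimals, in a table named as stranded. They also deposited a comparison table whose sample columns are a signal, normalized gene counts, together with the authors' log2 fold changes, test statistic (a score) and p-values. Per the submitters' processing notes, the genome build was GRCm39 and the tools included STAR 2.7.1a, DESeq2 1.30.1, RSEM, DESeq and Trimmomatic (0.35 and 0.38), listed without roles. No source used here gives the annotation release or read filters.

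All normalized counts of a library were whole multiples of 1 step (100% within a tolerance of 0.01), which gave the read totals, but the unit check did not accept this for WT replicates 1 and 3, whose step is near 1, so no count test was run. The filter kept genes reaching 1 TPM in 3 or more libraries, which limma-trend (limma 3.58.1, R 4.3.3, robust) compared on log2(TPM + 1) by genotype alone, with Benjamini-Hochberg adjustment and a threshold of 0.05, after a check on simulated data. 4 log2 ratios were compared by exact permutation over 35 splits. The 8 genes, the 4 ratios and all gene lists were chosen with earlier results of these data known. Named genes are the 8, the other Ikaros genes, in each pathway list the 3 further genes of lowest p, and the 3 nearest profiles of Cd4 and Foxp3, of which 1 is not reported here; of the marker lists only summed levels or genes a sentence turns on are given, and genes named outside this rule (Gp9, Gp1bb, Ppbp, Ccdc22, Il4, Il5, Il9, Il13, Il17a, Il17f, Il21, Il22, H2-Aa, H2-Ab1 and Ccr7) were chosen after their values were seen. Alternatives were other pseudocounts (0.1 and 5), filters, quantile normalization, normalized counts, scaling to Cd3d, Cd3e and Cd3g, and leaving out each library. Promoter sequences are from RefSeq (GRCm38.p6), matched by symbol, while gene coordinates are those of the deposited table (GRCm39). Plots used Python 3.11.15 and matplotlib 3.10.9.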

Additional observations from a re-analysis of the deposited data

Results flagged for a closer look

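Within the 4 ENT1KO libraries, a library far from the other 3 was looked for with Dixon's ratio, the gap to the nearest value divided by the range, in 83 sets of values, and 4 exceeded its 95% critical value. Chance flags about 1 set in 20. The normalized count per TPM of Cd4 was 20.9 in ENT1KO replicate 15 and 41.5 to 44.7 in the others (ratio 0.867). The summed TPM of the NK, NKT and gamma-delta T cell list was 173 in ENT1KO replicate 14 and 102 to 113 in the others (0.839). Cxcr3 was at 136 TPM in ENT1KO replicate 15 and 78.1 to 87.3 TPM in the others (0.840). Col3a1, a fibrillar collagen, was at 221 TPM in ENT1KO replicate 14 and 0.34 to 31.96 TPM in the others (0.857).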

How the results depend on the processing

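No paired analysis was possible because the groups share no replicate number. Scaling to the CD3 genes lowers the difference of every gene by the same amount. With it the direction turned for Gata3 (-0.18), Cd40lg (-0.47), Ikzf2 (-0.52) and Ikzf4 (-0.73). Zbtb7b (-1.34) and Lrrc32 (-1.30) passed, and 26 genes were called higher and 8591 lower. Quantile normalization turned Lrrc32 (0.25), lost the calls of Cd4 (-0.28) and Foxp3 (-0.23), left 2 of the 8 genes called and raised Cd40lg to 1.05 and Ikzf4 to 0.68, the second still short of a call. With no minimum level Cd4 (-0.73) and Cd40lg (0.65) lost their calls, leaving 2, and a minimum of 5 TPM left 4 of the 8 genes tested and 1 called; Cd4, Foxp3, Cd40lg and Lrrc32 gave no value there. On normalized counts Cd40lg (0.64) lost its call. With a pseudocount of 0.1 the differences of Cd4 and Foxp3 were -1.12 and -1.33, and with 5 they were -0.30 and -0.23, with the same calls.

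With 1 library left out, 4840 to 6853 genes passed, 2315 to 3748 higher and 2525 to 3145 lower, the lowest total without WT replicate 2, and 2 to 5 of the 8 genes were called. The differences ran from -0.90 to -0.60 for Cd4, -0.76 to -0.61 for Foxp3, 0.52 to 0.82 for Cd40lg, 0.64 to 1.15 for Gata3, 0.29 to 0.90 for Ikzf2, 0.10 to 0.77 for Ikzf4, -0.32 to -0.11 for Zbtb7b and -0.29 to -0.02 for Lrrc32. The log2 ratios ran from -2.82 to -1.95 for Cd4 over Cd8a, -2.86 to -1.94 for Cd4 over the CD3 genes, -2.93 to -2.24 for Foxp3 over the CD3 genes and -0.57 to 0.26 for Foxp3 over Cd4, where 6 libraries cannot give an exact permutation p under 0.0667. The cause of these changes was not tested. At 14.6 to 40.7 normalized counts of Foxp3 in ENT1KO, counting error limits the precision of its level.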

Other observations

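The nearest profiles of 4 of the other genes, by the same distance over the 7 libraries, are given as values; these genes were chosen after the data were seen. Ikzf4 was nearest to Klri2 (0.126), Tnfrsf4 (0.227) and Klrh1 (0.232), and Ikzf2 to Zbtb32 (0.216), Klra10 (0.237) and Fam20a (0.238). Klri2, a killer cell lectin-like receptor, was at 19.2, 23.2, 19.2 and 6.58 TPM in ENT1KO replicates 11, 12, 14 and 15, against 13.4, 7.35 and 13.4 TPM in WT replicates 1, 2 and 3, with ENT1KO replicate 15 and WT replicate 2 again the lowest of their groups. Gata3 was nearest to Fahd2a (0.0529), Bspry (0.0656) and Ubald2 (0.0815), and Zbtb7b to Fars2 (0.0716), Mrpl34 (0.0809) and Scrn2 (0.0914).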
